A study of Mus musculus with 6 samples.

Results

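Receptor genes for colony-stimulating factors and inflammatory cytokines were followed in healthy hematopoietic stem and progenitor cells (HSPCs) of mouse bone marrow. The set of 10 genes, out of 32285 in the count matrices, was Csf1r, Csf2ra, Csf2rb, Csf3r, Il1r1, Il1rl1, Il6st, Tnfrsf1a, Tnfrsf1b and Epor. The rule that picks them uses the gene symbol alone. C57BL/6J mice carrying CD45.1, aged 8 to 12 weeks and not conditioned, received either PBS or 1000000 C1498 cells and were sacrificed at day 21. C1498 is a single transplantable murine acute myeloid leukemia (AML) line that carries CD45.2, so the sort for CD45.1 LSK cells (negative for lineage markers, positive for cKit and Sca1) was aimed at the cells of the host in both groups. There were 3 PBS and 3 AML libraries, and the labels do not state whether a library came from 1 mouse or from a pool. P-values therefore measure the spread between libraries.

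These receptors pass signals from outside the cell that tell progenitors to survive, divide or mature. Csf1r is a receptor tyrosine kinase for M-CSF. Csf2ra, Csf2rb, Csf3r, Il6st and Epor belong to the class of receptors without a kinase of their own, which signal through JAK kinases bound to their tails. Il1r1 and Il1rl1 recruit the adaptor MyD88, and the TNF receptors Tnfrsf1a and Tnfrsf1b recruit TRAF proteins. In bone marrow the first set is best known for steering granulocyte, macrophage and red cell output, and the second for responses to infection and tissue injury.

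The authors' table of kept cells covered 16822 cells in 5 libraries, with 6838, 934 and 4398 cells in PBS replicates 1, 2 and 3, and 693 and 3959 cells in AML replicates 1 and 3. It held 0 cells of AML replicate 2, so the comparisons set 3 PBS against 2 AML libraries. Summed UMIs of the kept cells ranged from 1945659 in AML replicate 1 to 32123508 in PBS replicate 1. Among all barcodes, 97.4% of those of PBS replicate 2 and 43.1% of those of AML replicate 3 also occurred in AML replicate 2, and of the kept cells 934 of 934 in PBS replicate 2, 1854 of 3959 in AML replicate 3 and 1730 of 4398 in PBS replicate 3 had a barcode found in another library. Kept cells of any pair of libraries shared at most 12 barcodes, and 0 to 22 kept cells of a library had more UMIs under the same barcode elsewhere. AML replicate 1 stood apart from the other libraries, with 14.7% of its cells in G1 phase against 49.0% to 58.2% elsewhere and 23 HSC cells, and every result that rests on it is given with that in view. All 10 stem cell markers of a fixed list were detected, and the mRNAs of the sorted antigens Kit (79.7 to 104 CPM) and Ly6a (101 to 203 CPM) were present in every library. Levels are in CPM, the UMIs of a gene per 1000000 UMIs of the same cells. Fewer cells that carry a receptor and less mRNA per cell cannot be told apart in a summed level.

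Over all LSK cells, 0 of the 10 receptors passed the adjusted threshold between AML and PBS (edgeR, adjusted p under 0.05), where 0.160% of the 14364 genes tested passed. At an unadjusted p under 0.05, 3 receptors were higher in AML (Csf1r, Il6st and Il1r1) and 0 were lower. In this direction the share of all genes was 5.51%. DESeq2 and limma-voom each called 1 of the 10, Csf1r, where they called 0.550% and 0.174% of these genes. The AML libraries lay above all PBS libraries for 5 receptors, a position held by 16.0% of all genes, and below all of them for 1 receptor, a position held by 13.7%. The median fitted log2 fold change was 0.26 for the receptors and -0.03 for all genes tested. AML replicate 2, which is not among these libraries, had 106 barcodes under a filter on all barcodes. In them 8 receptors were above all PBS libraries, against 33.9% of 16069 genes, and for 4 of these the lower end of the counting interval was too, against 5.89%.

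**Figure D1:**
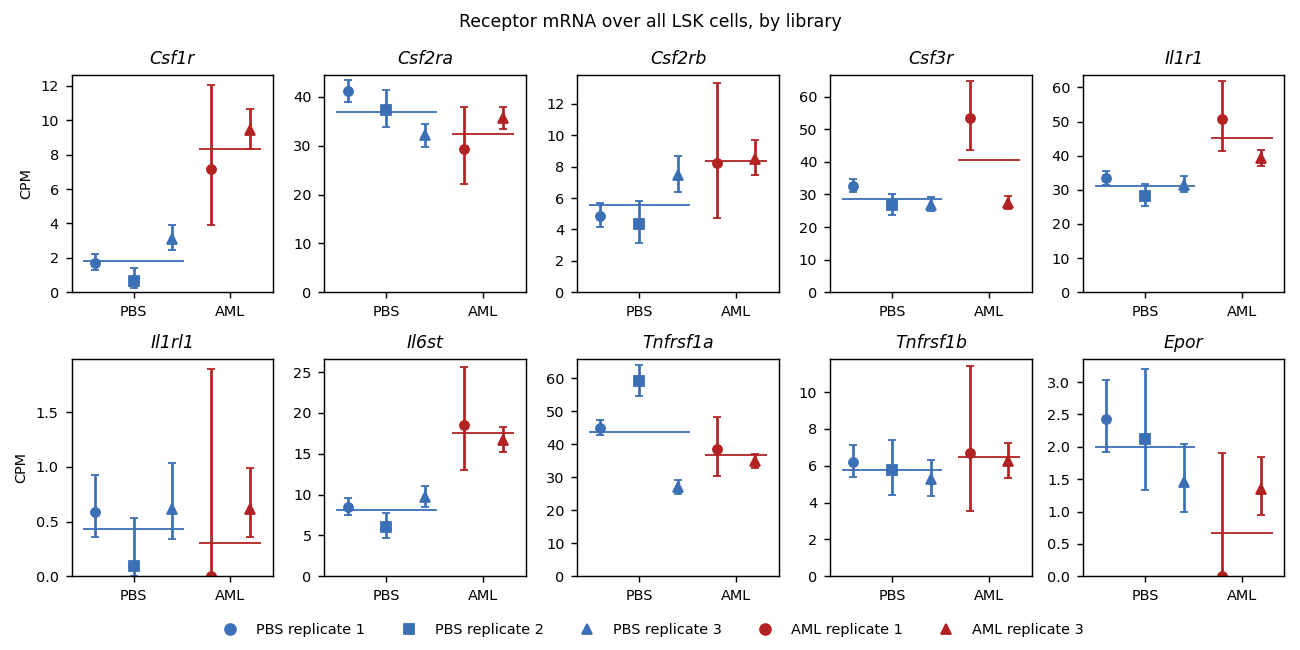
Level of each receptor over all LSK cells in CPM (vertical axes start at 0), with 1 point per library, exact 95% Poisson intervals of counting error as bars and group means as lines. Both AML libraries lie above all 3 PBS libraries for Csf1r, Csf2rb, Il1r1, Il6st and Tnfrsf1b.

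**Figure D2:**
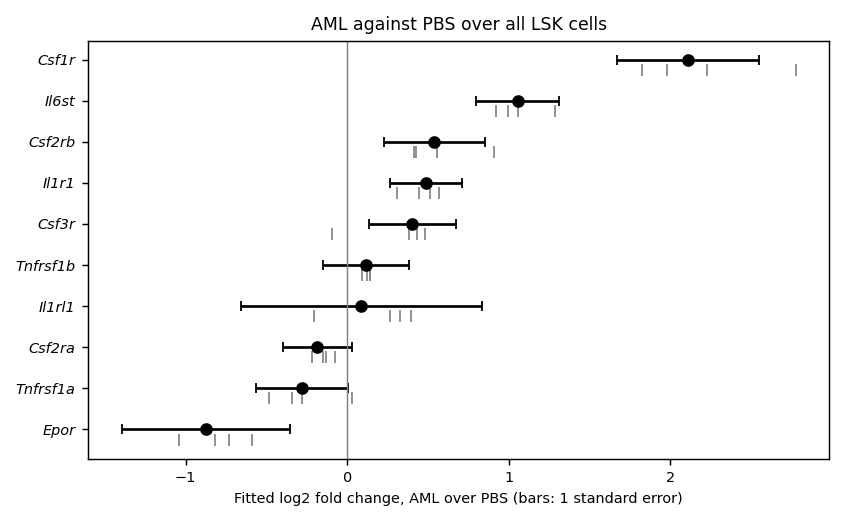
Fitted log2 fold change of AML over PBS for the 10 receptors (points) with 1 standard error (bars). Grey ticks give the value without each PBS library or without AML replicate 1. Csf1r lies farthest above 0 at 2.11, and the tick for Csf3r without AML replicate 1 is at -0.09.

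Csf1r, the M-CSF receptor, had the largest fitted difference of the set. It was at 1.71, 0.673 and 3.12 CPM in PBS replicates 1, 2 and 3, and at 7.20 and 9.42 CPM in AML replicates 1 and 3. The groups did not overlap, but the levels rest on few molecules, with 7 UMIs in PBS replicate 2 and 14 in AML replicate 1. PBS had a mean of 1.84 ± 1.23 CPM (SD, n = 3). AML had one of 8.31 ± 1.57 CPM (SD, n = 2). The fitted log2 fold change was 2.11 ± 0.44 (SE), with an adjusted p of 0.083 from edgeR. This sits close to the threshold, and 7 of 17 alternatives put Csf1r past it, among them DESeq2 (adjusted p = 0.012) and limma-voom (adjusted p = 0.040). All 17 alternatives gave a higher level in AML, with log2 fold changes from 1.75 to 2.78.

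Cell composition also differed between the libraries of the groups. The HSC class held 20.5% to 23.9% of PBS cells and 3.32% and 13.7% of the cells of AML replicates 1 and 3. Cluster 4, the cluster richest in granulocyte-monocyte progenitor markers (6219 CPM summed over 8 genes in PBS), held 2.46% to 3.41% of the PBS cells and 11.1% and 9.57% of those of AML. The MPP-3 class held 4.39% to 11.6% of PBS cells and 32.9% and 22.3% of AML cells. Over all LSK cells, the summed granulocyte-monocyte progenitor markers were at 803 to 1380 CPM in PBS and at 1861 and 1879 CPM in AML, and all 8 genes of the list were detected. The 11 monocyte markers, all detected, summed to 23.9 to 29.9 CPM in PBS and to 37.5 and 52.6 CPM in AML. Of the 9 tested, 3 lay above PBS in both AML libraries (16.0% of all genes) and 1 below (13.7%), with a median log2 fold change of 0.30. Within this sum, Ly6c2 was at 4.64, 5.67 and 6.11 CPM in PBS and at 12.8 and 21.2 CPM in AML. The 10 stem cell markers had a median log2 fold change of -0.41, with 7 of them below PBS in both AML libraries (13.7% of all genes) and summed levels of 967 to 1187 CPM in PBS and 890 and 951 CPM in AML. The neutrophil markers, with 5 of 10 tested and a median of -1.09, summed to 4.13 to 18.7 CPM in PBS and to 5.14 and 5.65 CPM in AML. The stroma markers, with 4 of 8 tested, summed to 47.7 to 60.5 CPM in PBS and to 121 and 82.4 CPM in AML. The part of these lists in the receptor levels was not tested. In the granulocyte-monocyte progenitor and the monocyte list 1 gene each passed the adjusted threshold, namely Ctsg (log2 fold change 1.54 ± 0.26, adjusted p = 0.025) and Ly6c2 (1.69 ± 0.27, adjusted p = 0.018), both named after their values were seen. At equal class shares neither passed, with log2 fold changes of 0.53 for Ctsg and 0.52 for Ly6c2 (both adjusted p = 0.998). Ctsg also did not pass without PBS replicate 1 (adjusted p = 0.203) or 2 (0.143), nor did Ly6c2 without PBS replicate 1 (0.173) or 2 (0.088) or AML replicate 3 (0.100). Ly6c2 passed in 10 of 17 alternatives and also missed with cluster 4 left out (log2 fold change 0.28, adjusted p = 0.803), in thinned cells (adjusted p = 0.123) and under an own cell filter on the same 5 libraries (0.054). With cluster 4 left out, Csf1r had a log2 fold change of 1.84 (adjusted p = 0.250), and with the 4 classes brought to equal shares in every library it was 1.93 (adjusted p = 0.026). The fit at equal shares kept only 138 cells of AML replicate 1 and 253 of PBS replicate 2.

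Within PBS marrow, Csf1r had its highest mean in MPP-3, followed by MPP-4, MPP-2 and HSC, and neighbours in this order overlapped. In MPP-3 it was at 2.21, 3.40 and 5.94 CPM in PBS replicates 1, 2 and 3, and in HSC the only 3 UMIs came from PBS replicate 3. In MPP-4 the values were 2.60, 1.01 and 4.96 CPM. By cluster, cluster 4 was highest with 10.1, 2.93 and 13.2 CPM, and cluster 2 was next with 3.96, 0.961 and 7.33 CPM. These 2 clusters gave 24.1% and 45.9% of all Csf1r UMIs of the PBS libraries while holding 4.63% and 20.1% of all UMIs.

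Within the 4 classes 0 receptors passed the adjusted threshold, of 7 tested in HSC, 9 in MPP-2 and 8 each in MPP-3 and MPP-4. The shares of all genes that passed were 0.178%, 0.0399%, 0.0486% and 0.0325% in this order. At an unadjusted p under 0.05 there were 0, 3, 2 and 2 receptors, each of them higher in AML, where 2.02%, 4.42%, 3.69% and 3.47% of all genes were higher. Both AML libraries were above PBS for 1, 5, 2 and 2 receptors, against 19.5%, 16.1%, 16.8% and 17.3% of all genes. The MPP-3 counts include Csf1r, which met the filter on low counts (3.71 CPM in 2 libraries) only through AML, with 1 PBS and 2 AML libraries at that level. In clusters 0, 2, 3 and 4 also 0 receptors passed, of 9, 8, 7 and 7 tested, where 0.0407%, 0.199%, 0.156% and 0.522% of all genes passed. At an unadjusted p under 0.05, 3, 1, 1 and 2 receptors were higher in AML there, against 4.65%, 3.24%, 2.31% and 2.57% of all genes. The AML libraries were above PBS for 5, 1, 1 and 3 receptors, against 20.5%, 13.7%, 12.5% and 10.1%. The cluster 0 counts include Csf1r, which met the filter there with 0 PBS and 2 AML libraries, so only through AML. DESeq2, read for Csf1r, Il6st and Il1r1 here, called 0 of them. Csf1r passed in MPP-2 in 2 of 9 alternatives (library size only, adjusted p = 0.041, and no filter, 7.44e-05) and in MPP-3 in 3 of 9 (the same, 0.0043 and 0.0014, and without PBS replicate 3, 0.045).

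Among the single clusters tested, Csf1r passed the adjusted threshold in cluster 1 alone, in a test that it entered only through its AML levels. There it was at 0.543, 0.438 and 1.50 CPM in PBS and at 12.5 and 7.47 CPM in AML, the PBS values resting on 4, 1 and 8 UMIs and those of AML on 6 and 49, and both AML libraries lay above PBS. The fitted log2 fold change was 3.28 ± 0.60 with an adjusted p of 0.024. Csf1r was the 1 receptor of 8 tested that passed in this cluster, where 0.155% of 11636 genes passed. It met the filter on low counts (1.88 CPM in 2 libraries) through the AML libraries alone, with 0 of 3 PBS libraries at that level, so it could be tested there only because it was high in AML. The same held for Csf1r in cluster 0. In MPP-3 1 PBS and 2 AML libraries met the filter where 2 were needed, so AML carried it past there too. In cluster 1, 3 receptors were higher in AML at an unadjusted p under 0.05, Csf1r among them, against 4.45% of all genes. For 3, again with Csf1r, both AML libraries were above PBS, against 12.1%. The call was lost without PBS replicate 1 (adjusted p = 0.137), without PBS replicate 2 (0.149) and without AML replicate 3 (0.061), and DESeq2 gave the gene no adjusted p. Csf1r passed there in 3 of 8 alternatives. In cluster 4 the AML libraries were at 13.2 and 31.1 CPM, the lower of them, from 3 UMIs, hardly above the 13.2 CPM of PBS replicate 3, and the log2 fold change was 1.38 ± 0.41 (adjusted p = 0.159). It passed in 1 of 8 alternatives, without AML replicate 1 (1.57, adjusted p = 0.021), and without AML replicate 3 the log2 fold change was 0.29 (adjusted p = 0.934). In cluster 2 the groups overlapped, with 6.62 and 7.63 CPM in AML and a log2 fold change of 0.67 ± 0.49 (adjusted p = 0.970).

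By class, Csf1r was at 14.6 and 17.7 CPM in the MPP-3 cells of AML replicates 1 and 3, above all PBS values there, with a log2 fold change of 2.03 ± 0.46 (adjusted p = 0.120). In MPP-2 it was at 1.38, 0.243 and 1.87 CPM in PBS and at 4.36 and 8.32 CPM in AML (log2 fold change 2.39 ± 0.50, adjusted p = 0.100). MPP-4 overlapped between groups, at 2.85 and 5.77 CPM in AML. The levels of AML replicate 1 rest on 9 UMIs in MPP-3, 4 in MPP-2 and 1 in MPP-4. Its counting interval in MPP-2, 1.19 to 11.2 CPM, reaches under the 1.87 CPM of PBS replicate 3, and the 0.243 CPM of PBS replicate 2 is 1 UMI. In HSC Csf1r was too low to be tested, with 0 UMIs in both AML libraries, which allows up to 1.28 CPM in AML replicate 3. The test of whether the AML effect differed between classes gave Csf1r an adjusted p of 0.072. In that test 0 of the 9 receptors tested passed, where 0.872% of 12734 genes did, and 2 (Csf1r and Il6st) were under an unadjusted p of 0.05, against 10.9% of all genes.

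**Figure D3:**
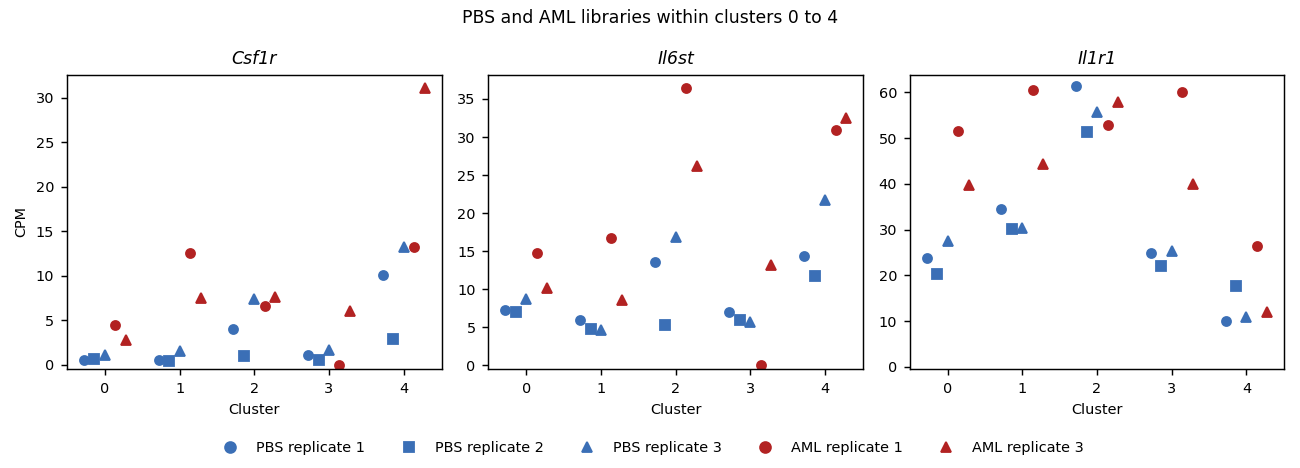
Level of Csf1r, Il6st and Il1r1 in CPM within clusters 0 to 4, with 1 point per library. In cluster 1 the AML libraries are at 12.5 and 7.47 CPM of Csf1r against at most 1.50 CPM in PBS, while in cluster 2 the Il1r1 points of both groups share the range from 51.4 to 61.4 CPM.

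Il6st, the gp130 chain shared by the receptors of IL-6, IL-11, LIF and oncostatin M, was the next receptor by fitted difference. It was at 8.47, 6.06 and 9.68 CPM in PBS replicates 1, 2 and 3 and at 18.5 and 16.7 CPM in AML replicates 1 and 3, without overlap. The log2 fold change was 1.05 ± 0.26 with an adjusted p of 0.158, and the gene passed in 1 of 17 alternatives, the fit with no filter on low counts (adjusted p = 0.0088). With the classes at equal shares the log2 fold change was 0.60 (adjusted p = 0.919), in a fit that kept 138 cells of AML replicate 1 and 253 of PBS replicate 2. The gene lies at chr13:112464070-112510086 on the plus strand of GRCm38.

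Il6st passed in 0 of the 4 classes and 5 clusters tested with edgeR, and in MPP-2 it passed with no filter (adjusted p = 0.032). Its AML libraries were above all PBS libraries in 3 of 4 classes. In MPP-2 it was at 6.40, 4.86 and 8.30 CPM in PBS and at 15.2 and 15.6 CPM in AML (log2 fold change 1.15 ± 0.30, adjusted p = 0.243). In MPP-3 it was at 9.35, 10.2 and 13.4 CPM in PBS and at 24.4 and 20.9 CPM in AML (0.87 ± 0.35, adjusted p = 0.555). In MPP-4 the values were 10.2, 7.60 and 10.1 CPM in PBS and 17.1 and 16.8 CPM in AML (0.75 ± 0.29, adjusted p = 0.704). HSC was the exception. There PBS was at 8.44, 3.99 and 9.86 CPM and AML replicate 3 at 7.26 CPM. AML replicate 1 had a single UMI among the 61292 UMIs of its 23 HSC cells. Even a count of 0 would allow up to 48.9 CPM in these cells, so this library says little about HSC. Across clusters 0 to 5 of PBS, Il6st had its highest means in clusters 4 and 2, where the range of cluster 2 overlapped those of clusters 0, 1 and 3. It was at 14.4, 11.7 and 21.7 CPM in cluster 4 and at 13.6, 5.29 and 16.9 CPM in cluster 2, against 5.97, 4.82 and 4.69 CPM in cluster 1. In cluster 2 the AML libraries reached 36.4 and 26.3 CPM (log2 fold change 1.10 ± 0.34, adjusted p = 0.284). The difference of the AML effect between classes had an unadjusted p of 0.012 and an adjusted p of 0.235.

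The alpha chain that binds IL-6 before gp130 joins, Il6ra, was among the 2 partner genes with the lowest p. It was at 10.9, 6.15 and 10.1 CPM in PBS and at 27.2 and 18.5 CPM in AML (log2 fold change 1.23 ± 0.28, adjusted p = 0.122). In MPP-3 it was at 13.8, 10.2 and 15.2 CPM in PBS and at 53.6 and 21.4 CPM in AML, again without overlap (1.12 ± 0.38, adjusted p = 0.389). DESeq2 placed Il6ra past the threshold over all LSK cells (adjusted p = 0.033), and with equal class shares its log2 fold change was 0.73 (adjusted p = 0.591). The other such partner, Lifr, which pairs with gp130 for LIF, was at 0.560, 0.481 and 0.616 CPM in PBS and at 0.514 and 2.06 CPM in AML (1.55 ± 0.53, adjusted p = 0.327), so its difference came from AML replicate 3.

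Il1r1, the signalling receptor for IL-1 alpha and IL-1 beta, was higher in MPP-4 than in the other classes in every PBS library. It lies at chr1:40225080-40317257 on the plus strand of GRCm38. In MPP-4, the lymphoid-directed class, it was at 61.1, 48.4 and 60.4 CPM in PBS replicates 1, 2 and 3. In MPP-2 it was at 17.9, 17.5 and 20.9 CPM, in MPP-3 at 21.6, 8.51 and 18.6 CPM, and in HSC at 14.9, 14.8 and 14.7 CPM. The lowest MPP-4 value was thus above the highest value of the other classes, while MPP-2, MPP-3 and HSC overlapped their neighbours in this order. Among clusters 0 to 5, cluster 2 was highest at 61.4, 51.4 and 55.8 CPM and cluster 4 was low at 10.1, 17.6 and 10.9 CPM. Among PBS cells thinned to 2000 UMIs, 11.7% of MPP-4 cells had an Il1r1 UMI against 2.86% of HSC cells. Without thinning the shares were 22.2% and 5.37%, with median depths of 3861 and 3334 UMIs, and in the immunoglobulin-rich cluster 6 the share was 2.75% at a median of 9258 UMIs.

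Between groups, Il1r1 was at 33.4, 28.3 and 31.5 CPM in PBS and at 50.9 and 39.3 CPM in AML over all LSK cells. The AML libraries were above all PBS libraries, with a log2 fold change of 0.49 ± 0.22 and an adjusted p of 0.469. The MPP-4 class, richest in Il1r1, made up 36.7% to 43.5% of PBS cells and 16.9% and 37.4% of AML cells. In MPP-4 itself AML was at 131 and 73.0 CPM (0.60 ± 0.25, adjusted p = 0.776), and in MPP-2 at 35.9 and 30.1 CPM (0.71 ± 0.25, adjusted p = 0.498). In cluster 0 it was at 23.7, 20.4 and 27.6 CPM in PBS and at 51.5 and 39.8 CPM in AML (0.77 ± 0.25, adjusted p = 0.533). Cluster 2 had no such gap, with 52.9 and 57.8 CPM in AML and a log2 fold change of -0.07 ± 0.27 (adjusted p = 0.988). Whether clusters differ in this was not tested. The IL-1 partner Il1rap, needed by both Il1r1 and Il1rl1 to signal, was at 9.31, 7.21 and 7.52 CPM in PBS and at 9.25 and 8.37 CPM in AML. The decoy receptor Il1r2, which binds IL-1 without signalling, was at 3.86, 3.27 and 1.80 CPM in PBS and at 0.514 and 1.59 CPM in AML, the first AML value being 1 UMI.

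**Figure D4:**
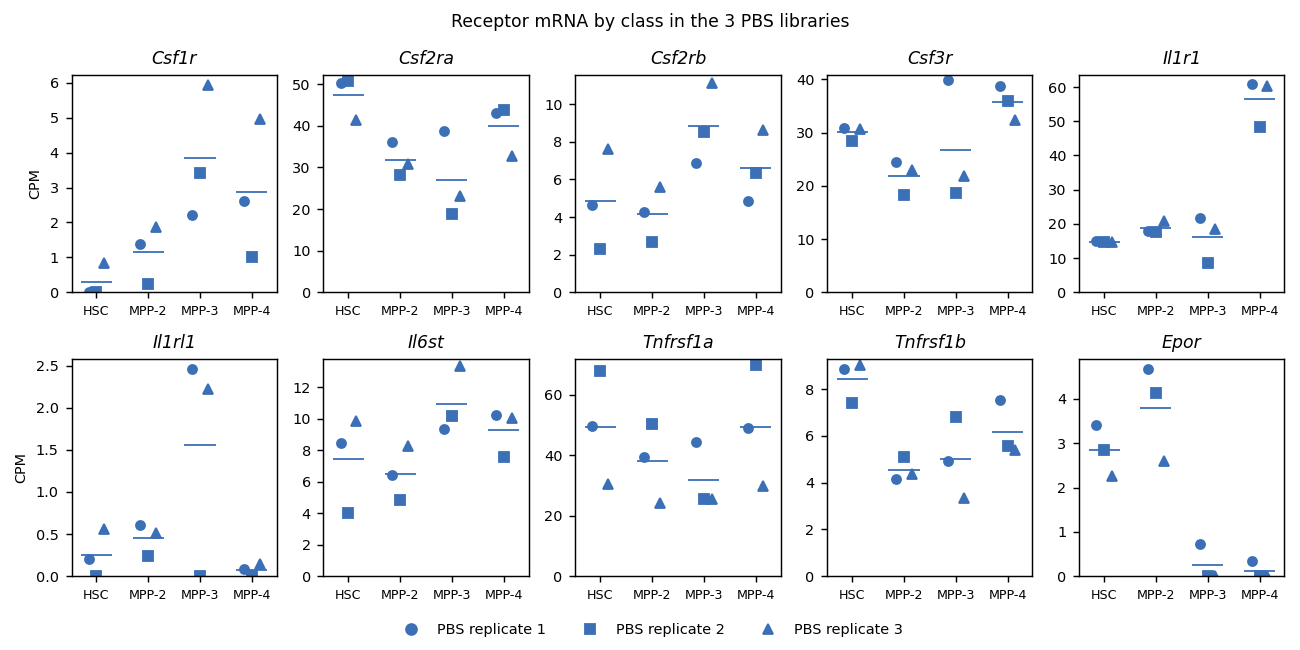
Level of each receptor in CPM in each of the 4 classes, for the 3 PBS libraries (points) with their mean (lines), vertical axes starting at 0. Il1r1 is highest in MPP-4 at 48.4 to 61.1 CPM, and Epor is at 2.25 CPM or more in HSC and MPP-2 and measured at most 0.738 CPM in the other classes, where the 0 of PBS replicate 2 in MPP-3 allows up to 5.11 CPM.

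Csf3r, the G-CSF receptor of the neutrophil branch, lies at chr4:126024550-126044440 on the plus strand. Its PBS level was 32.6, 26.7 and 26.9 CPM, and the AML libraries were apart from each other at 53.5 and 27.5 CPM. The log2 fold change of 0.40 ± 0.27 (adjusted p = 0.595) came from AML replicate 1, since without it the value was -0.09 (adjusted p = 1.00) and without AML replicate 3 it was 0.90 (adjusted p = 0.072). In PBS, MPP-4 had the highest mean, at 38.9, 36.0 and 32.4 CPM, and lay above HSC at 31.0, 28.5 and 30.7 CPM in all 3 libraries. MPP-3, at 39.9, 18.7 and 21.9 CPM, was above MPP-4 in PBS replicate 1. MPP-2 had the lowest mean, at 24.5, 18.2 and 22.9 CPM. By cluster, 1 and 0 were the highest at means of 35.6 and 32.7 CPM. In cluster 0 the AML libraries were at 66.2 and 43.3 CPM against 33.7, 29.5 and 34.8 CPM in PBS (log2 fold change 0.57 ± 0.25, adjusted p = 0.566). Cluster 4 had a mean of 19.5 CPM, although it is rich in granulocyte-monocyte progenitor markers.

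Csf2ra, the alpha chain that binds GM-CSF, lies at chr19:61223957-61228429 on the minus strand. It was at 41.2, 37.4 and 32.1 CPM in PBS and at 29.3 and 35.7 CPM in AML, with overlap and a log2 fold change of -0.18 ± 0.21 (adjusted p = 0.768). In PBS its level was highest in HSC, at 50.2, 50.7 and 41.4 CPM, ahead of MPP-4 in all 3 libraries though their ranges overlapped. Clusters 0, 1, 2 and 5 had nearly the same means, from 37.7 to 40.8 CPM, cluster 8 was at 44.1 CPM from 5 UMIs in each of 2 libraries, and the low cluster was 6, at 3.04 CPM.

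Csf2rb, the common beta chain for GM-CSF, IL-3 and IL-5, lies at chr15:78325752-78353847 on the plus strand. It was at 4.86, 4.33 and 7.48 CPM in PBS and at 8.22 and 8.51 CPM in AML, the lower AML value resting on 16 UMIs. The log2 fold change was 0.54 ± 0.31 (adjusted p = 0.549), and 0 of 17 alternatives called it. In PBS the level was highest in MPP-3, at 6.89, 8.51 and 11.1 CPM, and in cluster 4, at 8.64, 11.7 and 13.2 CPM. Its relative Csf2rb2, a mouse beta chain specific for IL-3, shares sequence with it, and 18.4% of the 50-base words of the longest Csf2rb transcript also occur in Csf2rb2. In the last 500 bases of the transcript that share was 0%. Csf2rb2 itself was low, at 0.440 to 1.15 CPM in the 5 libraries, and how reads common to both genes were counted was not tested. The IL-3 alpha chain Il3ra was at 32.4, 29.3 and 21.5 CPM in PBS and at 21.1 and 35.3 CPM in AML. In cluster 4 it reached 59.8, 96.7 and 46.5 CPM in PBS, the highest of clusters 0 to 4 in each library.

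The TNF receptors differed from each other in how steady they were. Tnfrsf1a, which carries a death domain and is the main receptor for soluble TNF, lies at chr6:125349362-125362484 on the plus strand. It was at 45.1, 59.2 and 27.0 CPM in PBS and at 38.5 and 34.9 CPM in AML. The PBS libraries thus spanned the AML libraries, and the order of PBS replicates 2, 1 and 3 from high to low was the same in HSC, MPP-2 and MPP-4 and in clusters 0 to 5. The log2 fold change was -0.28 ± 0.28 (adjusted p = 0.731), and without PBS replicate 2 it was 0.03. Tnfrsf1b, the receptor without a death domain, lies at chr4:145213463-145246870 on the minus strand. It was at 6.19, 5.77 and 5.28 CPM in PBS and at 6.68 and 6.23 CPM in AML. These AML values were above PBS by less than their counting intervals (3.56 to 11.4 CPM in AML replicate 1), and the log2 fold change was 0.12 ± 0.27 (adjusted p = 0.898). In PBS the HSC level, at 8.84, 7.41 and 9.02 CPM, was above MPP-4 in all 3 libraries.

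Epor, the erythropoietin receptor of red cell progenitors, lies at chr9:21958897-21963506 on the minus strand. In PBS it was at 3.42, 2.85 and 2.25 CPM in HSC and at 4.67, 4.13 and 2.59 CPM in MPP-2. In MPP-3 and MPP-4 it was at 0 in PBS replicates 2 and 3 and at 0.738 and 0.347 CPM in PBS replicate 1. The counts of 0 allow up to 5.11 CPM in the 41 MPP-3 cells of PBS replicate 2, which is above its HSC level, and up to 1.11 CPM in MPP-3 of PBS replicate 3. In MPP-4 they allow up to 0.760 and 0.437 CPM in these libraries, under their HSC levels. Cluster 7, with 34, 3 and 42 PBS cells and 9571 CPM of summed erythroid markers, had 65.3, 89.1 and 39.9 CPM. Cluster 6, with 8113 CPM of the same markers, had 0 Epor UMIs in its 57, 12 and 40 PBS cells, which allows up to 5.80, 12.7 and 6.61 CPM. Cluster 7 gave 28.6% of all Epor UMIs of PBS with 1.07% of all UMIs, and cluster 0 gave 57.9% with 34.3%. An Epor UMI was found in 27.8% of the PBS cells of cluster 7 (median 7262 UMIs) and in 0.0823% of those of MPP-4 (median 3861 UMIs), or in 8.86% and 0.0210% after thinning to 2000 UMIs.

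Over all LSK cells Epor was at 2.43, 2.11 and 1.45 CPM in PBS and at 0 and 1.34 CPM in AML. The count of 0 in AML replicate 1 allows a level of up to 1.54 CPM (3 counts, counting error only), which is above the level of PBS replicate 3, so a loss was not detectable at this depth. The log2 fold change was -0.87 ± 0.52 (adjusted p = 0.554), and thinning the cells to 2000 UMIs turned it to 0.21. The summed erythroid markers were at 129 to 514 CPM in PBS and at 78.1 and 249 CPM in AML, and all 10 genes were detected.

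Il1rl1, the IL-33 receptor of mast cells and basophils, lies at chr1:40429570-40465415 on the plus strand. It was the sparsest receptor, with at most 19 UMIs in a library. It was at 0.591, 0.0961 and 0.616 CPM in PBS and at 0 and 0.616 CPM in AML, where a count of 0 in AML replicate 1 allows up to 1.54 CPM. The fitted value of 0.09 ± 0.75 (adjusted p = 0.977) says little either way. In PBS replicate 1, 6 of its 19 UMIs came from the 28 cells of cluster 8 and 6 from cluster 4, and in PBS replicate 3, 7 of 14 came from cluster 4. These are the clusters with the highest summed mast cell and basophil markers (129 and 687 CPM in PBS, with 9 of 10 genes detected over all LSK cells and Mcpt4 at 0). Cluster 8 also held 815 CPM of lymphoid markers. Cluster 7, with 10.02 CPM of mast cell and basophil markers, had Il1rl1 at 3.44 and 5.70 CPM in PBS replicates 1 and 3, from 1 and 2 UMIs.

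**Figure D5:**
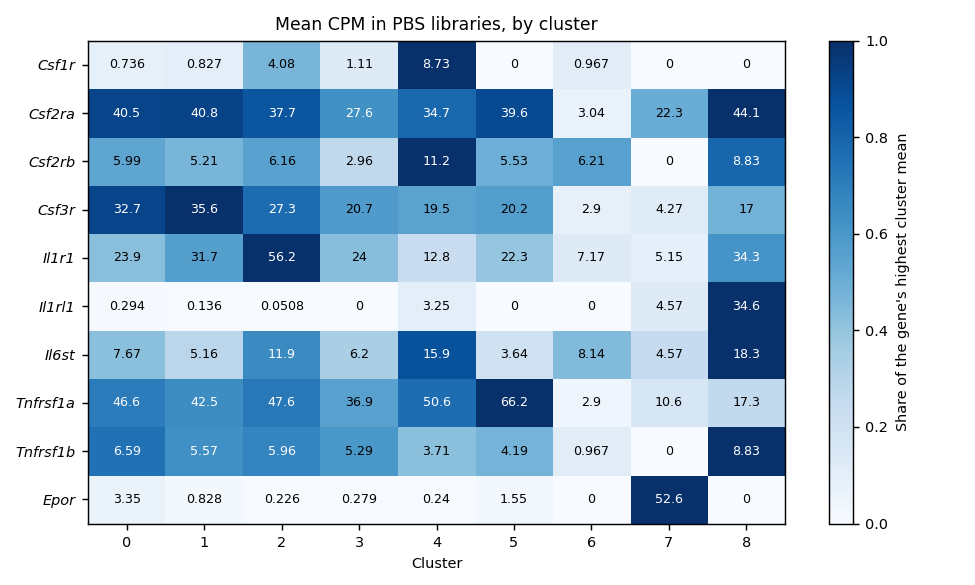
Mean level in CPM of each receptor in clusters 0 to 8 of the PBS libraries with at least 20 cells in the cluster (3 libraries for clusters 0 to 5, 2 for clusters 6 to 8). Shading scales each gene to its highest cluster. Epor is concentrated in cluster 7 at 52.6 CPM, Il1rl1 in cluster 8 at 34.6 CPM and Il1r1 in cluster 2 at 56.2 CPM.

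Stretches upstream of the start site are shown for Epor and Il1rl1, whose highest levels were in small clusters, and for Tnfrsf1b as a receptor found in every class. Each is the 250 bases before the RefSeq start on GRCm38.p6, 5′ to 3′ on the strand of the gene. Capitals mark matches on either strand to AGATAA (the GATA motif), GAGGAA (PU.1) or TTCNNNGAA (the STAT motif). Epor is at chr9:21963577-21963826, Il1rl1 at chr1:40429320-40429569 (the first of its 2 starts) and Tnfrsf1b at chr4:145246871-145247120.
Epor: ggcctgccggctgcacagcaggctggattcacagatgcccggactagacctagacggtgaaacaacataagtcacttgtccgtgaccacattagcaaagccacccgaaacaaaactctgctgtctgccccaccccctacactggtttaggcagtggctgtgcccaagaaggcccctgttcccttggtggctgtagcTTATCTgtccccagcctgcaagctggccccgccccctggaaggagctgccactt
Il1rl1: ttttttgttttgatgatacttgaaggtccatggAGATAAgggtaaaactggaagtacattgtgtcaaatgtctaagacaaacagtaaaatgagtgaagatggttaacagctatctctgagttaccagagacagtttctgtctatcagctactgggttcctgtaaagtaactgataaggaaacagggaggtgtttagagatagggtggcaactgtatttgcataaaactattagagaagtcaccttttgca
Tnfrsf1b: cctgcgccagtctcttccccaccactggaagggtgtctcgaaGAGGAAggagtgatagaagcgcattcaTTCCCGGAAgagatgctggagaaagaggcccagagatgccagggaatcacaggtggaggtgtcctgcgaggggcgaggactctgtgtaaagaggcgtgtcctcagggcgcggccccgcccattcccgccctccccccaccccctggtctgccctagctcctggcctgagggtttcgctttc
The GATA match of Epor begins 54 bases before the start and that of Il1rl1 217 bases before it. Among all 32851 RefSeq starts, 9.99% of such windows hold AGATAA, 23.3% hold GAGGAA and 7.02% hold TTCNNNGAA. Tnfrsf1b has 1 match to the PU.1 and 1 to the STAT motif, 208 and 181 bases before its start, and 0 to the GATA motif. For 8 of the receptors 10 starts in all were read. The starts of Il1r1 and Il6st held 0 matches to any of the 3 motifs. Csf1r and Csf2rb were not analysed here for motifs. A match describes letters in a window and is no evidence of binding.

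Some receptors went together across PBS clusters, here over 24 sums of library and cluster that share libraries and depth, centred within the library. Csf2ra and Tnfrsf1a had a Pearson r of 0.83 and Csf3r and Tnfrsf1a of 0.81. Outside the set, the genes most like Csf2rb were Grn (r = 0.87), Cebpb (0.84), a myeloid transcription factor, and Cd53 (0.82). Those most like Il1r1 were Shisa8 (0.90), Ppp1r18 (0.90) and Kcnk12 (0.87). Csf3r was most like Plaur (0.93), the urokinase receptor, then Arhgap32 (0.92) and Il15 (0.90). Il6st was most like Syngr2 (0.82), Rpn2 (0.76) and Gm5617 (0.69). For Csf2ra they were Srsf11, Srrm2 and Xrn2 (0.98, 0.97 and 0.97), for Tnfrsf1a Ldlrad3, Wasf2 and Ifitm3 (0.96, 0.95 and 0.95), and for Tnfrsf1b Cmtm3, 1110059E24Rik and Tnrc18 (0.92, 0.91 and 0.87). Cluster 6, low in most receptors, is among the points, and its part in these values was not tested.

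Single cells seldom showed more than 1 receptor. After thinning to 2000 UMIs per cell, 67.4% to 74.1% of the cells of a library had 0 UMIs of the 10 genes and 3.66% to 6.49% had UMIs of 2 or more of them. At this depth a cell without a UMI cannot be told from a cell that lacks the mRNA.

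Around the receptors, 0 genes of 5 lists of ligands, partners, other receptors and signalling genes passed over all LSK cells. At an unadjusted p under 0.05, 2 of 11 partners tested, 1 of 18 other receptors, 3 of 20 JAK and STAT genes and 1 of 21 IL-1 and TNF signalling genes were higher in AML, against 5.51% of all genes. Lower in AML were 1, 2, 1 and 1 of them, against 5.01% of all genes. Of 14 ligands only 3 were high enough to test, and Csf3, which encodes G-CSF, had 0 UMIs. Tnf was at 5.04, 11.6 and 5.01 CPM in PBS and at 4.63 and 12.2 CPM in AML (log2 fold change 0.45 ± 0.40, adjusted p = 0.683). Csf1, the ligand of Csf1r, was at 1.93, 2.02 and 1.67 CPM in PBS and at 2.57 and 2.50 CPM in AML (0.40 ± 0.38, adjusted p = 0.704). Of the other receptors, 18 of 20 were tested. Tnfrsf18, a member of the TNF receptor family, was at 52.3, 40.3 and 39.6 CPM in PBS and at 10.3 and 30.3 CPM in AML (-0.99 ± 0.31, adjusted p = 0.286). The log2 fold change was -0.56 without AML replicate 1 and -2.09 without AML replicate 3. Tnfrsf18 passed in 3 of 17 alternatives, among them no filter (adjusted p = 0.0075, edgeR) and the replicate block.

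Of the JAK and STAT signalling genes, 20 of 20 were tested, with 6 of them above PBS in both AML libraries (16.0% of all genes) and 1 below (13.7% of all genes), and the median log2 fold change was 0.09. Cbl, a ubiquitin ligase that turns receptors over, was at 31.2, 28.0 and 32.9 CPM in PBS and at 65.3 and 45.1 CPM in AML (0.79 ± 0.24, adjusted p = 0.264). Pim1, a kinase gene induced by STAT5, was at 514, 263 and 347 CPM in PBS and at 906 and 405 CPM in AML (0.80 ± 0.35, adjusted p = 0.452), with overlap. AML replicate 3 lay inside the PBS range, and the 17 alternatives gave log2 fold changes from 0.09 to 1.28. Of the IL-1 and TNF signalling genes, 21 of 21 were tested and the median log2 fold change was 0.02. Traf3, an adaptor that holds noncanonical NF-kB signalling in check, was at 26.1, 16.9 and 22.2 CPM in PBS and at 32.4 and 32.7 CPM in AML (0.55 ± 0.23, adjusted p = 0.421). Birc2, a ubiquitin ligase of the TNF receptor complex, was at 49.6, 42.2 and 39.0 CPM in PBS and at 21.1 and 37.1 CPM in AML (-0.54 ± 0.25, adjusted p = 0.467).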

How the data were processed

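Single-cell RNA-seq of sorted LSK cells was made with Chromium GEM V3 chemistry from 3 PBS and 3 AML libraries. The authors deposited raw UMI counts per gene and barcode for each library, and a table with UMI counts, detected genes, class (Subpopulation), cluster and cell cycle phase for each kept cell. The submitters' processing notes name Cell Ranger 7.0.1, R 4.2.2, Seurat 4.3.0 and GRCm38/mm10. Among the sources used here, none states the filters on cells and doublets or the clustering settings. The cell table held 16822 cells of 5 libraries, and 19 of its columns were not used. The 10 receptors, the gene lists and the tests were chosen with earlier results of these data known.

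Counts were summed per library over all kept cells and per class or cluster, with at least 20 cells per library. Sums were tested with edgeR 4.0.16 (R 4.3.3; TMM, filterByExpr, quasi-likelihood F test, two-sided) over all genes, with Benjamini-Hochberg adjustment at 0.05. The design expected 3 AML libraries and the table gave 2. The test of whether AML effects differed between classes held the library as a block. Classes and clusters were compared without a test, since they were built from the same cells. CPM used plain UMI totals, while log2 fold changes are fitted values with TMM. Intervals and floors (3 counts) cover counting error only, since cells of a library are not replicates. DESeq2 1.42.0, limma 3.58.1, other filters, scalings, cell sets, a replicate block and leaving out each library were alternatives. An own filter kept barcodes with at least 1000 genes and at most 10% mitochondrial UMIs. Coordinates are from GENCODE on GRCm38, and sequences from RefSeq on GRCm38.p6. The fitting script was tested on simulated data. The 10 receptors were named throughout. Of each signalling list, genes that passed were to be named, and otherwise the 2 with the lowest p, of which 1 is not reported here. Genes most like a receptor were the 3 with the highest Pearson correlation, for receptors with at least 200 UMIs in PBS and among genes with a mean of at least 20 CPM. Csf2rb2, Il3ra, Il1rap and Il1r2 were added as partners or relatives of a receptor after values were seen.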

Additional observations from a re-analysis of the deposited data

Results flagged for a closer look

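AML replicate 2 had 0 cells in the authors' table and entered only the alternative with the own filter on 6 libraries, in which Csf1r passed (adjusted p = 0.022, edgeR). With the own filter on the other 5 libraries it did not (0.103). Under the own filter it gave 106 barcodes with 306059 UMIs, where 1 UMI is 3.27 CPM. There 8 of the 10 receptors were above all PBS libraries processed the same way, against 33.9% of the 16069 genes with at least 10 UMIs in PBS. For the 4 below, the lower end of the exact 95% Poisson interval was also above all PBS levels, against 5.89% of these genes. For Il6st (16.3 CPM, 5 UMIs), Csf2rb (13.1 CPM, 4 UMIs), Csf2ra (45.7 CPM, 14 UMIs) and Epor (3.27 CPM, 1 UMI) it was not. Csf1r was at 26.1 CPM (8 UMIs, interval 11.3 to 51.5 CPM), against 0.626 to 2.78 CPM in PBS. Csf3r was at 78.4 CPM (24 UMIs, 50.2 to 117 CPM), against 26.5 to 33.9 CPM. Il1r1 was at 55.5 CPM (17 UMIs, 32.4 to 88.9 CPM), against at most 30.04 CPM. With TMM scaling its lower end was 29.8 CPM and the highest PBS library was at 31.6 CPM, which leaves 3 receptors, Csf1r, Csf3r and Tnfrsf1b, with an interval above PBS. Tnfrsf1b was at 19.6 CPM (6 UMIs, 7.19 to 42.7 CPM), against 5.19 to 5.84 CPM. Of the 106 barcodes, 75 also occurred in another library, and 7 had more UMIs there. Over all 17055 barcodes of this library, most of which the filter left out, Csf1r was at 16.1, Csf3r at 169, Il1r1 at 75.6 and Tnfrsf1b at 17.3 CPM, so the whole library was above the interval of the kept barcodes for Csf3r and inside it for the others. The part of RNA outside cells and of barcode sharing in these values was not tested.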

How the results depend on the processing

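The counts of genes past the adjusted threshold moved far with the processing. Over all LSK cells the count of 23 became 79 with DESeq2, 392 with no filter on low counts, 91 with a replicate block, 75 with the own filter on 6 libraries, 8 with thinned cells, 42 at equal class shares and 12 without cluster 4, and leaving out 1 library gave 2 to 419. For the classes, with the edgeR count in parentheses, DESeq2 gave 0 (19) for HSC, 15 (5) for MPP-2, 8 (5) for MPP-3 and 1 (4) for MPP-4, and for cluster 0 12 (5), cluster 2 1 (23), cluster 3 7 (16) and cluster 4 7 (45). In HSC 86 genes had an unadjusted DESeq2 p under 0.05. Scaling by library size only gave 29, 26, 84 and 9 genes in the classes in the same order, and shifted the median log2 fold change of all genes in HSC from -0.03 to 0.12 and in MPP-3 from -0.01 to 0.11. No filter gave 29, 156, 166 and 75 genes in the classes and 104, 151, 43 and 30 in clusters 0 to 3. Leaving out 1 library gave 0 to 17, 0 to 84, 2 to 69 and 0 to 34 in the classes, 0 to 142 in cluster 0, 4 to 496 in cluster 1, 8 to 109 in cluster 2, 2 to 17 in cluster 3 and 18 to 101 in cluster 4. The test between classes called 111 genes, 1 with limma-voom, 506 with no filter, and 29 to 189 without 1 library. The causes were not tested.

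Whether replicate numbers pair the libraries could not be decided. Same-numbered deviations correlated at -0.06 and -0.05 in the table's cells. With 2 AML libraries centred within their group, however, the AML deviations are exact opposites. Under the own filter on 6 libraries the same-numbered values were -0.01, 0.01 and -0.06, and the others lay between -0.02 and 0.04. The replicate block gave 9, 30, 47 and 34 genes in the classes and 7, 14, 9 and 23 in clusters 1 to 4, with Csf1r past the threshold over all LSK cells (adjusted p = 0.021, edgeR) and not in cluster 1 (0.221).

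Over all LSK cells, Csf1r, Il6st, Il1r1, Csf2rb and Tnfrsf1b kept a higher fitted level in AML under all 17 alternatives each, and Csf2ra a lower one. Directions turned for Il1rl1 (-0.080 with DESeq2, -0.51 with the replicate block, -6.05 to 0.39 without 1 library), Tnfrsf1a (0.063 with the block, -0.48 to 0.031 without 1 library), Epor (0.21 thinned), Csf3r (-0.093 to 0.90), Tnf (-0.60 to 0.94) and Lifr (-0.12 to 1.84), the last 3 without 1 library. Within classes and clusters, they turned for Il6st in HSC (0.011 with DESeq2, -0.38 to 0.64 without 1 library) and, without 1 library, for Il1r1 in HSC (-8.28 to 0.44), Il1r1 in MPP-3 (-0.0045 to 0.73), Csf1r in MPP-4 (-0.21 to 1.40) and Il6st in cluster 3 (-6.77 to 1.03). Values of -6 or lower belong to fits in which the remaining AML library had 0 UMIs and are no bounds. With 1 AML library left, it is assumed to vary like the PBS libraries. At the depth of AML replicate 1, a count of 0 allows up to 1.54 CPM over all LSK cells and up to 48.9 CPM in its HSC cells.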
